A study of Homo sapiens with 6 samples.

Results

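The 8 genes that encode the amino acid transporters SLC1A4, SLC1A5, SLC7A1, SLC7A5, SLC7A6, SLC38A1, SLC38A2 and SLC36A1 were followed by RNA-seq in SW480 cells with and without knockdown of PCYT2. The 8 genes were taken by name through the GENCODE 29 annotation of their Ensembl identifiers, and all 8 were found among 19746 genes listed in the libraries and among the 12756 genes whose mean level reached 0.5 FPKM, a fragment count scaled to transcript length and library size. SW480 is a human colorectal cancer cell line, and PCYT2 encodes the enzyme that sets the pace of the Kennedy pathway for phosphatidylethanolamine. The study asked which genes lie downstream of PCYT2. There were 3 groups of 2 libraries: shNT, the control hairpin, and shPcyt2-1 and shPcyt2-2, each carrying a different short hairpin RNA against PCYT2. Per the study's methods, hairpins against PCYT2 were delivered by lentivirus in the pLKO.1-TRC vector with puromycin selection, and cells were kept in high-glucose DMEM with serum. The methods text does not say how the control hairpin was delivered. No source used here says whether the replicates came from separate infections, so p-values measure only the spread between these libraries.

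Amino acid transporters divide the work of feeding a cell. SLC1A4 (ASCT1) and SLC1A5 (ASCT2) are sodium-dependent exchangers of small neutral amino acids, and SLC1A5 is a main route for glutamine in many tumor cells. SLC7A5 (LAT1) exchanges large neutral amino acids such as leucine, and SLC7A6 (y+LAT2) exchanges cationic for neutral amino acids. Both are light chains that reach the plasma membrane bound to the heavy chain SLC3A2. SLC7A1 (CAT-1) carries arginine and lysine. SLC38A1 and SLC38A2 (SNAT1 and SNAT2) pull glutamine, alanine and other small neutral amino acids in with sodium, which supplies the exchangers with substrate to trade. SLC36A1 (PAT1) couples small amino acids to protons and sits largely on lysosomes. When amino acids run short, kinases that phosphorylate the alpha subunit of the initiation factor eIF2 raise translation of the transcription factor ATF4, and several of these transporter genes are known ATF4 targets. SLC36A1 and other lysosomal genes are known targets of TFEB and TFE3, which bind E-box sequences.

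Promoter windows are printed here for the members that carry one of these letter patterns at a start site of a gene that rose with at least 1 hairpin. RefSeq windows on GRCh38.p14, running from 250 bases before to 50 bases after an annotated start, were found for all 8 genes, 13 windows in all, and 2 patterns were searched on both strands: TGATGNAA, the core of the ATF4 response element, and CACGTG, the palindromic E-box. The patterns did not overlap each other, and genes with several annotated starts had more windows in which to hold a match. TGATGNAA lay in 3.62% of all 35116 windows and in at least 1 window of 4.46% of the 27305 genes. It lay in windows of 4 of the 8 genes. CACGTG lay in 7.26% of windows and 8.77% of genes, and in windows of 3 of the 8. In the windows below capitals mark the matches. SLC1A4 carries the ATF4 core on the opposite strand and SLC7A1 and SLC38A1 on their own strand, while SLC36A1 carries 2 copies of the E-box.
SLC1A4, chr2:64989149-64989448, plus strand: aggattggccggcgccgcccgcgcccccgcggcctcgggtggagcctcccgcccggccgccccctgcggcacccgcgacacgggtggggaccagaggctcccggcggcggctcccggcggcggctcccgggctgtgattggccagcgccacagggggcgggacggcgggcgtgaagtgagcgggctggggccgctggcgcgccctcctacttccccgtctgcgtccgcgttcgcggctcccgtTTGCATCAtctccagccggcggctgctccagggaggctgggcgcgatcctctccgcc
SLC7A1, chr13:29595639-29595938, minus strand: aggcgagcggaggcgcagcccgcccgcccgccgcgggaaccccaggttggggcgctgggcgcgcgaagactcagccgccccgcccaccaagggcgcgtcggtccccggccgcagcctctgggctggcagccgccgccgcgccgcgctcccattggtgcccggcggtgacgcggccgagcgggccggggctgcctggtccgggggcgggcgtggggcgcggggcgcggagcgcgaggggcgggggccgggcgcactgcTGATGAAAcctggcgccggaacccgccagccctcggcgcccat
SLC38A1, chr12:46266467-46266766, minus strand: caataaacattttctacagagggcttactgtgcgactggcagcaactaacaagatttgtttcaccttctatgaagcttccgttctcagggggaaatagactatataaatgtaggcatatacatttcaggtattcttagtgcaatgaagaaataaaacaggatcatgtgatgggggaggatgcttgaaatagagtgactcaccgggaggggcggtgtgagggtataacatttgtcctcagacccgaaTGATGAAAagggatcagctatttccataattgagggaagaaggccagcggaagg
SLC36A1, chr5:151447353-151447652, plus strand: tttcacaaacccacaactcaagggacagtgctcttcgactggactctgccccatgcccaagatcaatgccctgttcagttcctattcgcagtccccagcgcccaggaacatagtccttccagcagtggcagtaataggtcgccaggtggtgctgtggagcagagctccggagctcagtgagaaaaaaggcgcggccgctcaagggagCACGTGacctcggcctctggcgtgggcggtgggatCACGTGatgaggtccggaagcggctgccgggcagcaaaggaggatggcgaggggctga
The printed windows of SLC1A4, SLC38A1 and SLC36A1 belong to the inner of 2 annotated starts, and their outer windows held neither pattern. Which start these cells use was not tested. The fourth gene with the ATF4 core was SLC1A5, at an inner start at chr19:46784765-46785064, and the remaining E-boxes lay in a window of SLC7A5 and in another inner window of SLC1A5. SLC7A6 and SLC38A2 held neither pattern in these windows, which says only that these letters are not there. A match is a description of the letters and not of binding.

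PCYT2 itself, at chr17:81900965-81911464, was lower in every knockdown library. Its level was 11.6 and 13.8 FPKM in the shNT libraries, 7.11 and 7.36 FPKM in shPcyt2-1 and 6.71 and 6.18 FPKM in shPcyt2-2. On the log2(FPKM + 1) scale it fell by 0.73 ± 0.10 (SE, adjusted p = 0.00205) with shPcyt2-1 and by 0.88 ± 0.10 (SE, adjusted p = 0.00261) with shPcyt2-2, by limma with Benjamini-Hochberg adjustment over the 12756 genes, the test used throughout and called at an adjusted p under 0.05. All fold changes below are on this scale, which understates the change of low genes such as SLC36A1. PCYT2 shares its locus with ANAPC11 on the opposite strand. ANAPC11 was at 89.3 and 91.3 FPKM in shNT, 105 and 108 FPKM in shPcyt2-1 and 96.7 and 94.0 FPKM in shPcyt2-2. Whether reads were counted by strand is not given in the sources used here. If they were not, part of the PCYT2 value may belong to ANAPC11.

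The libraries looked alike in breadth. They listed 18806 to 19209 genes each and their FPKM summed to between 396467 and 402612. The files give no read counts, so depth in reads is unknown. A relative depth could not be had from the low values either: of the 292 to 306 genes shorter than 120 bases and above 0.05 FPKM in a library, only 48 to 58 lay within 0.01 of a whole multiple of the value that the most of them shared. The cells read as epithelial. KRT8, the most abundant of 10 epithelial markers, was at 3602 and 3861 FPKM in shNT, and the intestinal keratin KRT20 was under 0.1 FPKM everywhere. The 10 markers summed to 8236 and 8797 FPKM in shNT, 8450 and 8543 FPKM in shPcyt2-1 and 6285 and 6585 FPKM in shPcyt2-2, a sum made almost entirely of KRT8, KRT18 and KRT19. These 3 keratins fell by 0.41 to 0.45 with shPcyt2-2, while 5 of the 9 tested markers, such as EPCAM and CDH1, had values above 0 there and the median was 0.10. With shPcyt2-1 the epithelial transcription factors CDX2 and ELF3 fell by 0.65 and 0.60, and no other of the 9 was called. There 5 of the 9 had values above 0 and the median was 0.02, and 10.1% of all tested genes fell. The 8 immune cell markers summed to 23.7 and 20.5 FPKM in shNT, 21.7 and 25.7 FPKM in shPcyt2-1 and 19.1 and 22.8 FPKM in shPcyt2-2. Most of this was CD68, a lysosomal protein of macrophages that other cells also express, while PTPRC and MS4A1 were listed in no library. The 7 fibroblast markers summed to 2.28 and 2.47 FPKM in shNT, 3.64 and 4.12 FPKM in shPcyt2-1 and 3.79 and 3.58 FPKM in shPcyt2-2, with COL3A1 listed in no library. LUM, which was below COL1A1 in shNT and shPcyt2-2 and above it in shPcyt2-1, rose by 0.81 (adjusted p = 0.00192) with shPcyt2-1, from 0.789 and 0.863 FPKM to 2.17 and 2.24 FPKM. The 5 endothelial markers summed to 0.791 to 1.37 FPKM. The part of all these markers in the results below was not tested, and in bulk RNA fewer cells of a type and less RNA per cell cannot be told apart.

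In the control cells SLC1A5 stood far above the rest. It was at 1614 ± 84.8 FPKM (SD, n = 2) in shNT, which placed it at mean rank 25 among all listed genes. SLC7A5 followed at 275 ± 24.4 FPKM (SD, n = 2), SLC38A2 at 47.0 ± 3.21 FPKM and SLC7A1 at 46.0 ± 1.24 FPKM, and the last pair overlapped and could not be ordered. SLC38A1 at 31.1 ± 2.75 FPKM, SLC1A4 at 12.2 ± 0.193 FPKM, SLC7A6 at 10.4 ± 0.490 FPKM and SLC36A1 at 2.20 ± 0.164 FPKM came below them without overlap between neighbors. The order by mean was the same in all 3 groups, with SLC1A4 and SLC7A6 overlapping in shPcyt2-2. FPKM is per length, so these levels can be set beside each other across genes. The heavy chain SLC3A2, at 193 and 212 FPKM in shNT, was at a level near that of its light chain SLC7A5, and the ratio of SLC7A5 to SLC3A2 stayed between 1.26 and 1.43 in the 6 libraries. The other heavy chain of this kind, SLC3A1, was under 0.08 FPKM.

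With shPcyt2-1 most of the transporters were higher. Of the 8 genes, 5 rose and none fell, against 26.7% of all tested genes that were called in this comparison, 16.5% that rose and 10.1% that fell, and against 33.9% called among genes with a mean of at least 10 FPKM. The median log2 fold change of the 8 was 0.30, beside 0.07 for all tested genes. The 8 genes were chosen with earlier results of these data known. Their counts and medians, here and in the comparisons below, are therefore descriptions and not a test of the set. In 7 of the 8 both shPcyt2-1 libraries lay above both shNT libraries, as they did for 43.3% of all tested genes, and in 1, SLC1A5, they lay below, as for 25.6%. Leaving out shPcyt2-1 replicate 1 kept the call of SLC36A1 alone, and leaving out replicate 2 lost those of SLC7A1 and SLC38A1. Fewer of all tested genes were called in both fits too. Median-ratio scaling, which removed the shift of 0.07, left 3 calls, SLC7A1 and SLC38A1 losing theirs.

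With shPcyt2-2 the picture was mixed. SLC38A2 and SLC36A1 rose, SLC1A5 fell, and the other 5 were not called, against 12.4% of all tested genes called, 7.69% that rose and 4.74% that fell; of the genes with a mean of at least 10 FPKM, 19% were called. The median log2 fold change of the 8 was 0.04, equal to the 0.04 of all tested genes. Leaving out shNT replicate 2 or shPcyt2-2 replicate 1 kept the call of SLC1A5 and lost those of SLC38A2 and SLC36A1. Fewer of all tested genes were called in these fits too. Both shPcyt2-2 libraries lay above both controls for 3 of the 8 and below them for 2, beside 35.1% and 22.4% of all tested genes. Both hairpins were compared with the same shNT libraries.

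**Figure D1:**
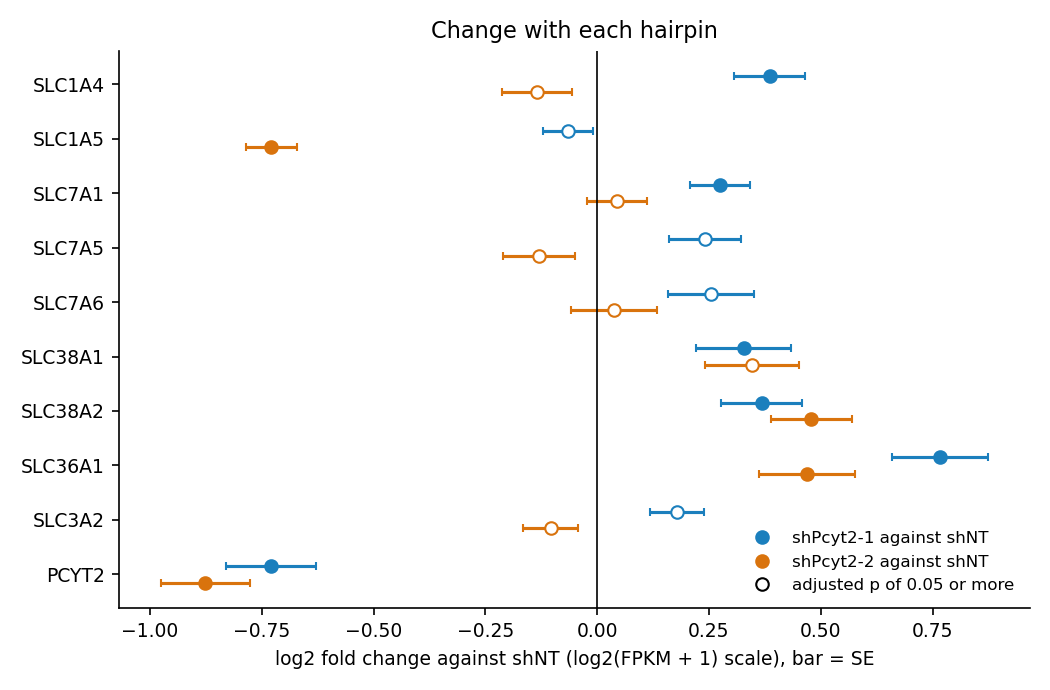
Log2 fold change against shNT on the log2(FPKM + 1) scale for the 8 transporters, the heavy chain SLC3A2 and PCYT2, with shPcyt2-1 (blue) and shPcyt2-2 (orange); bars are standard errors and filled points have an adjusted p under 0.05. SLC38A2 and SLC36A1 are filled on the right for each hairpin, and SLC1A5 is filled on the left, at -0.73, for shPcyt2-2 alone.

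Among the sodium-dependent exchangers, SLC1A5 (chr19:46774883-46788594, minus strand) was the member with the largest drop. Its level was 1554 and 1674 FPKM in shNT, 1540 and 1543 FPKM in shPcyt2-1, and 1002 and 944 FPKM in shPcyt2-2. The shPcyt2-2 libraries lay far below the other 4, which differed little among themselves. The mean in shPcyt2-2 was 0.603 of that in shNT, a log2 fold change of -0.73 ± 0.06 (SE, limma adjusted p = 0.000569), and the call held in all 17 alternative analyses. With shPcyt2-1 the change was -0.07 ± 0.06 (SE, adjusted p = 0.418), and its sign turned to 0.09 once a trend with GC content and length was removed. The direct difference between the hairpins was -0.66 ± 0.06 (SE, adjusted p = 0.000141).

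SLC1A4 (chr2:64988477-65023865, plus strand), the close relative of SLC1A5, moved differently. It was at 12.0 and 12.3 FPKM in shNT, 16.6 and 15.9 FPKM in shPcyt2-1, and 11.4 and 10.6 FPKM in shPcyt2-2. The 3 groups did not overlap, with shPcyt2-1 highest and shPcyt2-2 lowest. It rose by 0.39 ± 0.08 (SE, adjusted p = 0.00924) with shPcyt2-1, a mean 1.33 times that of shNT (adjusted p = 0.0858 without shPcyt2-1 replicate 1), while the value of -0.14 ± 0.08 with shPcyt2-2 was not called (adjusted p = 0.274). The hairpins differed by -0.52 ± 0.08 (SE, adjusted p = 0.00196), a call that held in all 16 alternatives. The ratio of SLC1A5 to SLC1A4 transcript level was lower in every knockdown library, at 129 and 136 in shNT, 93.0 and 97.2 in shPcyt2-1, and 88.0 and 88.9 in shPcyt2-2.

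SLC7A5 and SLC7A6, light chains of heterodimeric exchangers, were not called against shNT with either hairpin. SLC7A5 (chr16:87830023-87869488, minus strand) was at 258 and 292 FPKM in shNT, 333 and 317 FPKM in shPcyt2-1, and 267 and 235 FPKM in shPcyt2-2. The shPcyt2-1 libraries were the highest, and the shNT and shPcyt2-2 ranges overlapped. The values against shNT were 0.24 ± 0.08 (SE, adjusted p = 0.0528) and -0.13 ± 0.08 (SE, adjusted p = 0.299), but the difference between the hairpins of -0.37 ± 0.08 was called (adjusted p = 0.0096, and 0.0828 without shPcyt2-2 replicate 2). SLC7A5 with shPcyt2-1 lay near the threshold: with the GC and length trend removed it was 0.41 (adjusted p = 0.00847). The heavy chain SLC3A2 was at 0.18 ± 0.06 (adjusted p = 0.0581) and -0.10 ± 0.06 (adjusted p = 0.277), and it too was lower with shPcyt2-2 than with shPcyt2-1, at -0.28 ± 0.06 (adjusted p = 0.00963, but 0.0779 without shPcyt2-1 replicate 1 and 0.0676 without shPcyt2-2 replicate 2). SLC7A6 (chr16:68264516-68301823, plus strand) was at 10.7 and 10.01 FPKM in shNT, 12.8 and 12.3 FPKM in shPcyt2-1, and 11.6 and 9.76 FPKM in shPcyt2-2. It was called in no comparison, with 0.25 ± 0.10 (SE, adjusted p = 0.0796) for shPcyt2-1. SLC7A6OS, on the opposite strand, overlaps it at 3.14 to 4.21 FPKM, so part of the SLC7A6 value may belong to it if reads were not counted by strand.

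SLC7A1 (chr13:29509410-29595688, minus strand), the arginine and lysine carrier, was at 45.1 and 46.8 FPKM in shNT, 56.7 and 54.9 FPKM in shPcyt2-1, and 49.2 and 45.7 FPKM in shPcyt2-2. Only the shPcyt2-1 libraries stood apart. It rose by 0.27 ± 0.07 (SE, adjusted p = 0.0171) with shPcyt2-1 and was at 0.04 ± 0.07 (SE, adjusted p = 0.686) with shPcyt2-2, with a difference between hairpins of -0.23 ± 0.07 (SE, adjusted p = 0.0307). Without shPcyt2-1 replicate 1 or 2 the adjusted p was 0.132 and 0.0644 for the rise and 0.198 and 0.106 for the difference, which was at 0.16 without shPcyt2-2 replicate 2. Under median-ratio scaling the shPcyt2-2 value became -0.01.

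The sodium-coupled carriers SLC38A1 and SLC38A2 lay above the controls in every knockdown library. SLC38A2 (chr12:46358189-46372867, minus strand) was at 49.3 and 44.8 FPKM in shNT, 62.0 and 59.9 FPKM in shPcyt2-1, and 72.1 and 60.1 FPKM in shPcyt2-2. The shPcyt2-2 pair was wide apart. It rose by 0.37 ± 0.09 (SE, adjusted p = 0.0184) with shPcyt2-1 and by 0.48 ± 0.09 (SE, adjusted p = 0.0146) with shPcyt2-2. Over all 17 alternatives these values ran from 0.23 to 0.44 and from 0.32 to 0.61. Both calls were lost without shNT replicate 2, the first also without shPcyt2-1 replicate 1 and the second without shPcyt2-2 replicate 1. Fewer of all tested genes were called in these fits too. When single libraries were left out the values were 0.30 to 0.44 and 0.35 to 0.61 with the hairpins in that order. Why the calls were lost was not tested. SLC38A1 (chr12:46183063-46270017, minus strand), its neighbor on the chromosome, was at 33.1 and 29.2 FPKM in shNT, 41.4 and 37.2 FPKM in shPcyt2-1, and 43.9 and 36.0 FPKM in shPcyt2-2. Its shPcyt2-2 pair was wide apart too. It rose by 0.33 ± 0.11 (SE, adjusted p = 0.0475) with shPcyt2-1, a call that held in 10 of 17 alternatives. The losses included the fits without shNT replicate 2, shPcyt2-1 replicate 1 or shPcyt2-1 replicate 2. Over all alternatives the value ran from 0.22 to 0.41. The 0.35 ± 0.11 with shPcyt2-2 was not called (adjusted p = 0.0614), and it ran from 0.21 to 0.49 when single libraries were left out. The difference between hairpins was 0.02 ± 0.11 (SE, adjusted p = 0.915) for SLC38A1 and 0.11 ± 0.09 (SE, adjusted p = 0.399) for SLC38A2, which does not show that the hairpins acted alike.

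SLC36A1 (chr5:151437046-151492381, plus strand), the proton-coupled lysosomal carrier, had the largest fold change of the 8 with shPcyt2-1, from the lowest level. It was at 2.09 and 2.32 FPKM in shNT, 4.74 and 4.17 FPKM in shPcyt2-1, and 3.63 and 3.24 FPKM in shPcyt2-2. The 3 groups did not overlap. The group means were 2.02 times shNT in shPcyt2-1 and 1.56 times in shPcyt2-2. It rose by 0.77 ± 0.11 (SE, adjusted p = 0.00225) with shPcyt2-1, a call that held in all 17 alternatives, and by 0.47 ± 0.11 (SE, adjusted p = 0.0264) with shPcyt2-2, a call that held in 12 of 17 and was lost without any 1 of the shNT or shPcyt2-2 libraries (adjusted p = 0.0595 to 0.14). The difference between hairpins, -0.30 ± 0.11, was not called (adjusted p = 0.0697).

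**Figure D2:**
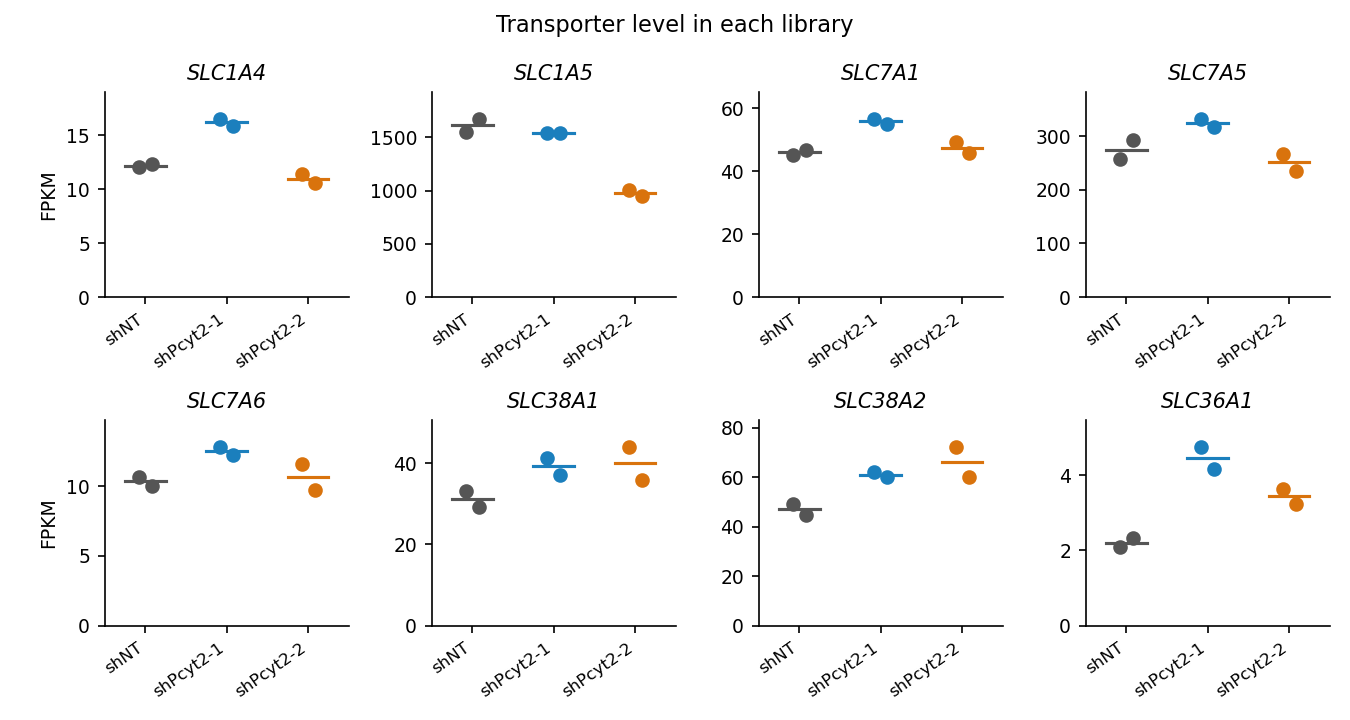
Level of each transporter (FPKM, linear axis from 0) in the 2 libraries of shNT (grey), shPcyt2-1 (blue) and shPcyt2-2 (orange), with lines at the group means. SLC38A1, SLC38A2 and SLC36A1 are above shNT in all 4 knockdown libraries, and SLC1A5 is at 1002 and 944 FPKM in shPcyt2-2 alone.

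Set directly against each other, the hairpins gave different transporter levels. Of the 8 genes 4 were lower with shPcyt2-2 than with shPcyt2-1 (SLC1A4, SLC1A5, SLC7A1 and SLC7A5) and none was higher, where 27.1% of all tested genes were called, 12.9% as higher and 14.2% as lower, and 34.4% of those with a mean of at least 10 FPKM. Both shPcyt2-2 libraries lay below both shPcyt2-1 libraries for 6 of the 8 and above them for 0, beside 36.5% and 30.7% of all tested genes. The median difference was -0.26 for the 8 and -0.02 for all tested genes. Without shPcyt2-2 replicate 2 SLC1A4 and SLC1A5 kept their calls and SLC7A1 and SLC7A5 lost theirs, and fewer of all tested genes were called too. The summed level of the 8 genes was 1964 and 2111 FPKM in shNT, 2067 and 2044 FPKM in shPcyt2-1, and 1461 and 1345 FPKM in shPcyt2-2. SLC1A5 made up 79.1% and 79.3% of that sum in shNT, 74.5% and 75.5% in shPcyt2-1, and 68.6% and 70.2% in shPcyt2-2. The sum of the other 7 was 410 and 438 FPKM in shNT, 527 and 501 FPKM in shPcyt2-1, and 459 and 401 FPKM in shPcyt2-2, which overlapped shNT.

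When the 4 knockdown libraries were pooled against shNT in a fit with 2 groups, none of the 8 was called, and 0.00784% of tested genes were, that is 1 gene, with 2128 at an unadjusted p under 0.05, among them 3 of the 8. All 4 knockdown libraries lay above both controls for 3 of the 8 and below them for SLC1A5, beside 20.7% and 9.48% of all tested genes. The adjusted p of the 8 ran from 0.148 for SLC36A1 to 0.869 for SLC7A5, and PCYT2 itself was not called (adjusted p = 0.115), in a fit that counts the difference between the hairpins as spread. The mean of the hairpins from the fit with 3 groups called 4, SLC36A1, SLC38A2 and SLC38A1 as higher and SLC1A5 as lower (adjusted p = 0.00656, 0.0115, 0.0372 and 0.00392), with 2142 genes called in all.

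Of 44 other genes of amino acid transport, made up of the 2 heavy chains, 26 relatives in the same families and 16 transporters of other families, 21 were tested. Of these, 3 rose and 1 fell with shPcyt2-1, and none was called with shPcyt2-2, beside 26.7% and 12.4% of all tested genes. With the GC and length trend removed 9 were called with shPcyt2-1 and 1 with shPcyt2-2, so the count with shPcyt2-1 lay below or above the share of all tested genes depending on this setting. Between the hairpins 1 was higher and 5 were lower with shPcyt2-2, beside 27.1% of all tested genes called. The tested ones had median log2 fold changes of 0.21 and 0.10 with the hairpins in that order. SLC38A5, a glutamine and serine carrier at 71.4 and 78.2 FPKM in shNT, was at 91.0 and 92.2 FPKM in shPcyt2-1 and at 74.5 and 69.8 FPKM in shPcyt2-2. It rose by 0.29 ± 0.07 (SE, adjusted p = 0.0151) with shPcyt2-1. With shPcyt2-1 SLC6A9, a glycine transporter, rose by 0.54 ± 0.12 (adjusted p = 0.0108) and SLC66A1, the lysosomal exporter of cationic amino acids, by 0.52 ± 0.15 (adjusted p = 0.0318). With shPcyt2-2 SLC6A9 was at 0.17 (adjusted p = 0.353) and SLC66A1 at -0.35 (adjusted p = 0.148), neither of them called. The difference between hairpins was called for both, at -0.38 (adjusted p = 0.0402) for SLC6A9 and -0.87 (adjusted p = 0.00342) for SLC66A1. SLC7A7, which like SLC7A6 is a light chain of system y+L, fell by 0.66 ± 0.11 (adjusted p = 0.00413) with shPcyt2-1, from 3.76 and 3.22 FPKM to 1.93 and 1.74 FPKM. With shPcyt2-2 SLC7A7 was at -0.36 and was not called (adjusted p = 0.0642). SLC7A11, the cystine and glutamate exchanger, was at 4.08 and 3.14 FPKM in shNT, 5.44 and 4.50 FPKM in shPcyt2-1 and 5.28 and 3.78 FPKM in shPcyt2-2, and was not called. SLC38A9, the lysosomal arginine sensor, was near the threshold with each hairpin, at 0.36 (adjusted p = 0.0591) and 0.44 (adjusted p = 0.0504).

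The genes of the amino acid response moved in both directions. Of 24 genes, 23 were tested. Of these, 9 rose and 3 fell with shPcyt2-1, and 5 rose and 2 fell with shPcyt2-2, beside 16.5% and 10.1%, and 7.69% and 4.74%, of all tested genes. The median of the 23 was 0.15 and 0.03, beside 0.07 and 0.04 for all tested genes. The transcript of ATF4 itself, which is regulated mainly at translation, was at 402 and 380 FPKM in shNT and at -0.10 and -0.17 with the hairpins (adjusted p = 0.271 and 0.0936). ATF5, a related transcription factor, rose by 1.29 ± 0.09 (SE, adjusted p = 0.000161) with shPcyt2-1. Its levels of 70.7 and 72.4 FPKM there stood far above 25.9 and 31.6 FPKM in shNT and 25.3 and 25.1 FPKM in shPcyt2-2. TRIB3, an inhibitor that feeds back on ATF4, rose by 0.33 (adjusted p = 0.0127) with shPcyt2-1 and fell by 0.34 (adjusted p = 0.0215) with shPcyt2-2. PSAT1 of serine synthesis rose by 0.33 (adjusted p = 0.00626) and 0.47 (adjusted p = 0.00456), MTHFD2 of mitochondrial folate metabolism by 0.41 (adjusted p = 0.00552) and 0.31 (adjusted p = 0.0292), and the leucine sensor SESN2 by 0.43 (adjusted p = 0.0117) and 0.36 (adjusted p = 0.0392). PYCR1 of proline synthesis fell by 0.24 (adjusted p = 0.0166) and 0.41 (adjusted p = 0.00536). CEBPB and DDIT4 fell by 0.52 and 0.42 with shPcyt2-1 (adjusted p = 0.00448 and 0.0142), and XPOT, a tRNA exporter, rose by 0.38 with shPcyt2-2 (adjusted p = 0.0156). CTH of cysteine synthesis rose by 0.38 (adjusted p = 0.0208) with shPcyt2-1 and by 0.41 (adjusted p = 0.0282) with shPcyt2-2.

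Enzymes that use what these transporters carry were higher against shNT wherever they were called. Of 22 enzymes of glutamine, asparagine, arginine and branched-chain metabolism, 19 were tested. Of these, 8 rose and none fell with shPcyt2-1, and 2 rose and none fell with shPcyt2-2, where the shares of all tested genes that rose were 16.5% and 7.69%. With shPcyt2-2 the count was near the 12.4% of all tested genes that were called. The medians were 0.13 and 0.12. The share of calls was not tested between hairpins. GOT2, a mitochondrial aspartate aminotransferase, rose by 0.32 (adjusted p = 0.00506) and 0.25 (adjusted p = 0.0268). ODC1, the rate-limiting enzyme of polyamine synthesis, and ARG2, an arginase, rose by 0.41 (adjusted p = 0.00187) and 0.38 (adjusted p = 0.00638) with shPcyt2-1. Of 6 transcription factors known to act on transporter genes (ATF4, MYC, MAX, NFE2L2, TFEB and TFE3), none was called against shNT with either hairpin and 1 was called between the hairpins, beside 26.7%, 12.4% and 27.1% of all tested genes, and with 6 genes nothing is read from these counts. NFE2L2 was the one called, lower with shPcyt2-2 than with shPcyt2-1 by 0.39 (adjusted p = 0.00511).

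Each transporter's profile over the 6 libraries was set beside those of the other tested genes with a mean of at least 10 FPKM, by Pearson's r of log2(FPKM + 1). With 6 libraries in 3 groups high values come easily, and 249 to 483 genes passed 0.9 for each transporter. The nearest genes were DANCR and PI4KB for SLC1A4 (r = 0.998 and 0.998), SERGEF for SLC1A5 (r = 0.999), ERC1 and UHRF1 for SLC7A1 (r = 0.998 and 0.996), and MCM7 and HUWE1 for SLC7A5 (r = 0.996 and 0.994). They were ZNF664 and USP1 for SLC7A6 (r = 0.986 and 0.986), XRCC5 and HSD17B4 for SLC38A1 (r = 0.998 and 0.992), ARFGEF2 and USP7 for SLC38A2 (r = 0.999 and 0.998), and HCCS and TMEM216 for SLC36A1 (r = 0.996 and 0.994). SERGEF was at 21.3 and 21.6 FPKM in shNT, 21.2 and 21.2 FPKM in shPcyt2-1, and 19.0 and 18.5 FPKM in shPcyt2-2, lowest with shPcyt2-2 as was SLC1A5. The long noncoding RNA DANCR was at 104 and 108 FPKM in shNT, 191 and 176 FPKM in shPcyt2-1, and 95.9 and 87.2 FPKM in shPcyt2-2, highest with shPcyt2-1 as was SLC1A4. The coefficient r takes no account of the size of a difference.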

How the data were processed

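RNA-seq of 6 SW480 libraries was analysed. Each deposited file held 1 library's FPKM per Ensembl identifier; the authors made these values, genes at 0 are left out of the files, and the unit was read from the values, since TPM over part of the genes cannot be told apart. The aligner and counter are not given in the sources used here. The submitters' processing notes name GRCm38, mm10 and GRCh38 without roles, and their labels name 2 library kits without saying which library used which. Values of repeated identifiers were added up, and identifiers that shared every value were counted once, so 21539 identifiers became 19746 genes. Genes with a mean of at least 0.5 FPKM (12756) were tested as log2(FPKM + 1) with limma 3.58.1 (R 4.3.3; mean-variance trend, Benjamini-Hochberg), in 1 fit of 3 groups for the single hairpins and their difference, and in a fit of 2 groups for the pooled comparison. The code was tested on simulated data. The members and gene lists were chosen with earlier results of these data known. Genes named are the 8 members, PCYT2, up to 3 called genes per list and direction with the largest change, the most abundant of a list and the 2 genes most like each member; SLC7A11, SLC38A9 and other uncalled genes were added after their values were seen. A few genes that this rule picks are not reported here. Coordinates are GENCODE 29 on GRCh38; promoter windows are RefSeq's. Alternatives changed the pseudocount (0.1), the expression limit, scaling, variance model, GC and length trend, replicate block and each library. The differential tests of the study used DESeq and are not used here.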

Additional observations from a re-analysis of the deposited data

Results flagged for a closer look

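The effect of the 2 hairpins on the same gene differed, by the limma test of the difference itself, for 4 of the 8 transporters: shPcyt2-2 minus shPcyt2-1 was -0.52 (log2) for SLC1A4, -0.66 for SLC1A5, -0.23 for SLC7A1 and -0.37 for SLC7A5. In the same comparison 27.1% of all tested genes were called, and 34.4% of those with a mean of at least 10 FPKM. For SLC1A4 and SLC1A5 the call held without any single library; for SLC7A1 it held in 3 of 6 and for SLC7A5 in 5 of 6 such fits. Hairpin and knockdown population cannot be told apart, since each hairpin was used in 1 group. Whether the 2 library kits that the labels name line up with the groups is not given either.

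Among the 4 knockdown libraries SLC38A2 in shPcyt2-2 replicate 1, at 72.1 FPKM, stood apart from the other 3, at 59.9 to 62.0 FPKM: its gap to the nearest was 0.83 of the whole range. Chance marks about 1 in 20 groups of like samples, these 4 libraries came from 2 hairpins, and 8 genes were looked at.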

How the results depend on the processing

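The calls that held in all alternatives run were SLC1A5 lower with shPcyt2-2, SLC36A1 higher with shPcyt2-1, SLC1A4 and SLC1A5 between hairpins, and PCYT2 against shNT with each hairpin. The 8 transporters' calls depended on the expression limit: with no limit 3, 1 and 2 were called for shPcyt2-1, shPcyt2-2 and their difference, with 1831 and 124 genes called for the single hairpins. Median-ratio scaling left 3 calls with shPcyt2-1 and moved the split of called genes from 2109 higher and 1291 lower to 1422 and 1758, and with shPcyt2-2 from 981 and 604 to 763 and 879. Without the variance trend 1027 genes were called with shPcyt2-2. Leaving out a library gave 1 to 5, 1 to 3 and 2 to 4 transporter calls and 1147 to 3256, 125 to 1893 and 1662 to 3785 gene calls for the 3 comparisons, and 0 to 1 gene call for the pooled one; a group left with 1 library is assumed to vary like the others. In the pooled comparison, gene calls were 0 with a pseudocount of 0.1, with a mean of at least 2 or with the replicate block (with or without the trend in GC and length for the block), 7 with no limit and 2142 (4 transporters) from the mean of the hairpins. Calls among the other transporters with shPcyt2-1, 4 in all, were 9 with the GC and length trend removed and 1 with no limit. The cause of these changes was not tested.

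Sign changes came among values that were not called. Removing the GC and length trend, with or without the block, gave SLC1A5 0.089 with shPcyt2-1 and SLC7A6 -0.0066 with shPcyt2-2. Median-ratio scaling gave SLC7A1 -0.0093 and SLC7A6 -0.013 with shPcyt2-2, and SLC7A5 -0.011 and SLC3A2 -0.030 pooled. Leaving out single libraries gave SLC7A1 -0.0090 to 0.097 and SLC7A6 -0.077 to 0.15 with shPcyt2-2, SLC38A1 -0.12 to 0.16 and SLC38A2 -0.020 to 0.24 between hairpins, and SLC7A5 -0.035 to 0.15 and SLC3A2 -0.029 to 0.10 pooled.

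Replicate numbers are shared by all groups, but no source says that a number marks a batch, and the deviations of same-numbered libraries correlated at 0.003, 0.06 and 0.19 across genes. With the replicate block 6, 4 and 4 transporters and 3884, 2029 and 3869 genes were called for shPcyt2-1, shPcyt2-2 and their difference; SLC7A6 with shPcyt2-1 (adjusted p = 0.0452) and SLC38A1 with shPcyt2-2 (adjusted p = 0.0174) were the added transporters. With no read counts in the files, the depth behind low values such as those of SLC36A1 is unknown.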

Other observations

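Cytosolic aminoacyl-tRNA synthetases, which load the imported amino acids onto tRNAs, were called at shares near those of all tested genes. Of 20 tested, 3 rose and 2 fell with shPcyt2-1, and 2 rose and 1 fell with shPcyt2-2, beside 26.7% and 12.4% of all tested genes called. Their medians were 0.03 and 0.12, beside 0.07 and 0.04 for all tested genes. Values above 0 were found for 11 of the 20 with shPcyt2-1 and for 18 with shPcyt2-2, beside 59.8% and 58.1% of all tested genes. WARS1, for tryptophan, was at 103.5 and 100.7 FPKM in shNT, 135 and 136 FPKM in shPcyt2-1 and 118 and 118 FPKM in shPcyt2-2, and rose by 0.40 (limma adjusted p = 0.00189) and 0.21 (adjusted p = 0.0411). CARS1, for cysteine, fell by 0.51 (adjusted p = 0.00807) and KARS1, for lysine, by 0.30 (adjusted p = 0.0133) with shPcyt2-1. LARS1, for leucine, rose by 0.27 (adjusted p = 0.0401) and FARSA, for phenylalanine, fell by 0.27 (adjusted p = 0.034) with shPcyt2-2.

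Of 31 genes of lysosomal amino acid sensing and mTORC1, the kinase complex that reads amino acid supply, 3 rose and 1 fell with shPcyt2-1, and 6 rose and none fell with shPcyt2-2. The first count lies below the 26.7% of all tested genes called with shPcyt2-1, and 7.69% of all tested genes rose with shPcyt2-2. The medians were 0.07 and 0.10. RRAGC and RRAGB, small GTPases that recruit mTORC1 to lysosomes, rose by 0.57 (limma adjusted p = 0.0148) and 0.46 (adjusted p = 0.0188) with shPcyt2-1. With shPcyt2-2 the highest were BMT2, a sensor of S-adenosylmethionine, at 0.66 (adjusted p = 0.0157), FNIP2, a partner of folliculin, at 0.58 (adjusted p = 0.0193), and CASTOR1, an arginine sensor, at 0.46 (adjusted p = 0.0286). LAMTOR2, a scaffold subunit at the lysosome, fell by 0.23 (adjusted p = 0.0238) with shPcyt2-1. Of the 4 kinases of the eIF2 alpha subunit, EIF2AK1 rose by 0.28 (adjusted p = 0.0234) with shPcyt2-2 and the others were not called.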
